A study of Mus musculus with 25 samples.

Results

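Mouse blastocysts labelled Fzr1-OE (3 libraries) were compared with blastocysts labelled Control (2 libraries), which are 5 of the 25 samples in the series, by the abundance of RNA from each gene. All 5 came from BDF1 embryos at embryonic day 4.0. How Fzr1 was raised, what the Control embryos received and how many embryos went into a library were not found in the sources used here. The series asks what a raised dose of Fzr1 does in the early embryo, and 2 WT 2-cell libraries of the same strain (embryonic day 1.5) are used below as a reference for stage. The members described are the 9439 of 24708 listed gene loci that reached an average of 1 FPKM over the 5 libraries. FPKM is a fragment count scaled for transcript length and library size.

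Fzr1 encodes Cdh1, a co-activator that brings substrates to the anaphase-promoting complex (APC/C), a ubiquitin ligase that marks mitotic proteins for destruction at the end of mitosis and in G1. At this age the embryo is a hollow sphere with an outer epithelium, the trophectoderm, and an inner cell mass that holds the epiblast and primitive endoderm. The trophectoderm is built on keratin filaments, an actin and myosin cortex, tight junctions and a sodium pump that draws water into the cavity, and it later forms the placenta.

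Fzr1 RNA was measured at 12.7, 15.5 and 17.1 FPKM in the 3 libraries labelled Fzr1-OE, and both Control libraries had 16.5 FPKM. The groups overlapped. The difference was -0.13 on the log2 scale (SE 0.16, adjusted p by limma 0.713) on FPKM + 1, the scale of all fold changes below. Whether the labels carry a raised dose could thus not be seen in this RNA, and each direction below rests on the labels alone.

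Against that background, 397 loci differed between the groups (4.21% of those tested), 216 higher (2.29%) and 181 lower (1.92%) in the libraries labelled Fzr1-OE, at a limma adjusted p under 0.05. A locus past that threshold is called higher or lower here. The median log2 fold change was 0.74 among loci called higher and -0.61 among those called lower, and 0.01 over all loci tested. An unadjusted p under 0.05 was reached by 19.7% of loci. In all 397 the values of the groups did not overlap, as was so for 37.4% of all loci. Only 71 of the calls (36 higher and 35 lower) held in each of the 5 fits that left out 1 library, and 69 held in none of them. The count of calls higher and lower came to 41 and 46 without Control replicate 2, to 92 and 85 without Control replicate 1, to 105 and 105 without Fzr1-OE replicate 2 and to 98 and 87 without Fzr1-OE replicate 3. The genes that held in all 5 fits are called stable below, and the plot of level against change shows that calls of small fold lie where FPKM is high.

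Some stable genes belong to no group described below. Among the rises were Plk2 and Cdkn1a, a kinase and a cell cycle inhibitor that p53 is known to induce. Others were the small heat shock gene Hspb1, the pluripotency-associated Dppa2 and Spic, and P2rx7, an ATP-gated channel. P2rx7 was at 3.81, 7.25 and 7.47 against 0 and 0.0484 FPKM, so it reached the level for testing only through the libraries labelled Fzr1-OE. The falls included Abracl, Sri (the calcium-binding protein sorcin), the peptide carrier Slc15a2 and the non-coding RNA Snhg9. Snhg9 was at 4.97 and 20.1 FPKM in Control and listed at 0 in the other 3 libraries. It reached the level for testing only through Control, and its deposited confidence bounds implied at most 5 fragments in any library. Sri was at 52.0, 51.3 and 52.3 FPKM against 92.5 and 97.8 FPKM (-0.86), and Slc15a2 at 99.1, 102 and 96.1 against 179 and 169 FPKM (-0.81). The groups did not overlap in either gene, as in all 397 calls.

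**Figure D1:**
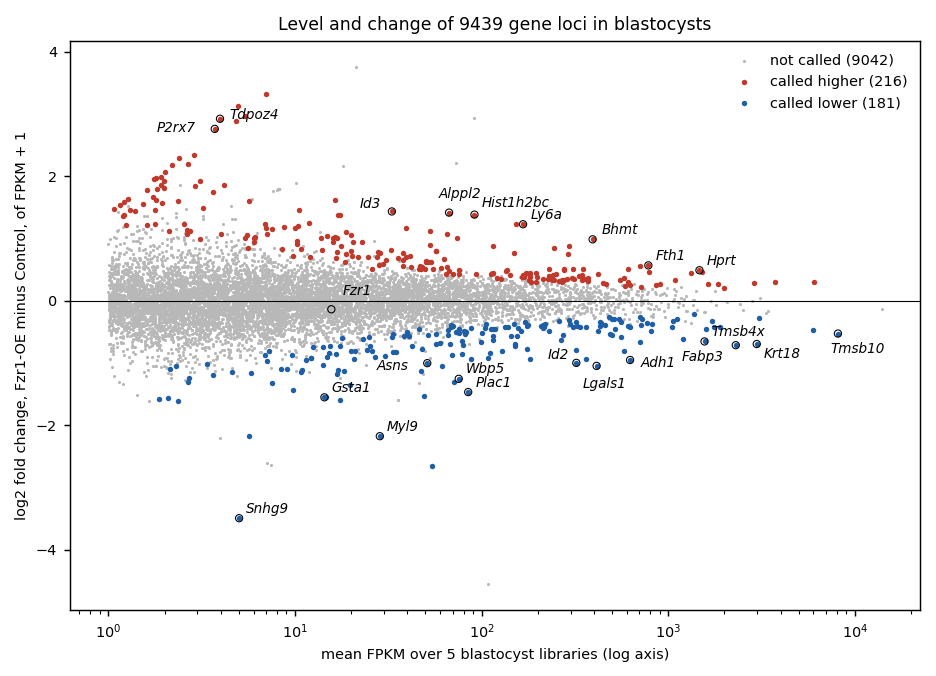
Each point is 1 of 9439 gene loci, by mean FPKM over the 5 blastocyst libraries (log axis) and by log2 fold change of FPKM + 1, libraries labelled Fzr1-OE minus Control. Red points (216) were called higher and blue points (181) lower, and ringed genes are named in the text, with Fzr1 near 0 among the uncalled.

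Read as 2 SD of a Poisson count, the deposited confidence bounds implied 9324167 to 10483442 fragments per library. On that reading, counting error (2 SD) at 1 FPKM was 26.9% to 29.0%. Implied counts of some abundant genes did not follow FPKM. Fth1 was at 1773 to 1973 implied fragments while its FPKM ran from 591 to 965. The sums are thus not the true number of fragments. Libraries of a group correlated with Pearson r from 0.975 to 0.981 over loci and those of different groups from 0.967 to 0.973, and no library stood apart from its group. Of cell type markers outside the embryo, all 10 oocyte and all 10 stroma markers stayed under 3 FPKM in every library. So did 9 of 10 cumulus, 9 of 10 sperm, 8 of 9 blood and 9 of 10 uterine and oviduct markers, with Wfdc2 the uterine exception. Defining markers of 3 of these cell types at 0 throughout included Amh and Fshr (cumulus), Hbb-b1 and Ptprc (blood) and Esr1 and Pgr (uterus).

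Keratin RNA of the outer epithelium was high in all 5 libraries, as the blastocyst label implies, and trophectoderm markers held most of the calls among lineage markers. Of 10 such markers 5 fell and 0 rose, where 1.92% of all loci were called lower. Their median log2 fold change was -0.63. Their summed level was 3778 to 3860 FPKM in libraries labelled Fzr1-OE against 6013 to 6181 FPKM in Control. Krt18 alone gave 2320 to 2471 FPKM of the first range and 3860 to 3868 FPKM of the second. Gata3, Krt7, Tead4 and Tfap2c were not called, at -0.27, -0.64, -0.19 and 0.25. Elf5, a transcription factor of trophoblast stem cells, stood at 2.79, 2.995 and 2.61 against 7.88 and 6.85 FPKM (log2 fold change -1.14, limma adjusted p = 0.0189). Eomes, a T-box factor of the same lineage, stood at 10.3, 12.6 and 10.03 against 19.6 and 18.2 FPKM (-0.74, adjusted p = 0.0357). Neither overlapped between groups, as with every called locus. Cdx2, the factor that first specifies the lineage, did overlap at 9.33, 6.56 and 9.18 against 6.78 and 9.21 FPKM (0.06, limma adjusted p = 0.923). Of 10 markers of the inner cell mass and epiblast 0 were called and the median was 0.00, and of 6 primitive endoderm markers tested Gata6 alone was called, higher at 23.2, 22.6 and 26.1 against 16.4 and 12.2 FPKM. In whole blastocysts, fewer cells of a type and less RNA per cell cannot be told apart, which touches every result below.

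The promoters of 6 called genes are printed here, for the groups that the results turn on. Each of the 6 holds a marked motif, so they do not show how common a motif is. Of these genes Myl9 and Asns alone were stable. The printed stretches are the 200 bases before the annotated start, 5′ to 3′ on the gene's strand, from RefSeq (GRCm38.p6). Capitals mark matches to short motifs on either strand. The first 3 belong to actin genes that were lower, and capitals mark the CArG box (the serum response factor motif), the CCAAT box (CCAAT or ATTGG) or the TEAD site (GGAATG).
Myl9 (chr2:156775264-156775463, plus strand, CArG box): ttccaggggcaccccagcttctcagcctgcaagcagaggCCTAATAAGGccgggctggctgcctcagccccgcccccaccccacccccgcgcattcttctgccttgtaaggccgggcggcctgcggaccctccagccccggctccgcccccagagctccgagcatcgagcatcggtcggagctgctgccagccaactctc
Cnn2 (chr10:79988400-79988599, plus strand, CArG box and CCAAT box): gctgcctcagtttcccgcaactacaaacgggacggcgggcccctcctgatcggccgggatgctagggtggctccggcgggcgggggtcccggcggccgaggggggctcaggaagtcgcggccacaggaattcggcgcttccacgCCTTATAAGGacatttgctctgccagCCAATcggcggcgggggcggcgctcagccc
Tpm1 (chr9:67049214-67049413, minus strand, CCAAT box and TEAD site): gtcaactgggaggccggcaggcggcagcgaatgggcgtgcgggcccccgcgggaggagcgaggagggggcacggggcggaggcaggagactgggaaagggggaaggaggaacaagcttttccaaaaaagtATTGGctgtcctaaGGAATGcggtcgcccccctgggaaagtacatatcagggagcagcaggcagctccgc
Histone genes that were higher come next, with the CCAAT box, the TATA box (TATAAA or TTTATA) and the octamer (ATTTGCAT) in capitals, the elements known from histone promoters.
Hist1h2bg (chr13:23571200-23571399, plus strand): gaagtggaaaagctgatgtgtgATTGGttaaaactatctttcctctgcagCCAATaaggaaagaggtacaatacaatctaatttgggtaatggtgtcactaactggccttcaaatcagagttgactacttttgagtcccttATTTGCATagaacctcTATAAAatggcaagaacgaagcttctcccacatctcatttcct
Hist3h2ba (chr11:58948711-58948910, plus strand): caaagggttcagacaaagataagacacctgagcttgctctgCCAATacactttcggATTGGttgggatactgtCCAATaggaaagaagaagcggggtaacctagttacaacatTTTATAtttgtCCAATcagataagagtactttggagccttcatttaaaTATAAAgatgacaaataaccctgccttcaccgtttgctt
The last is Asns, which was lower, with the amino acid response element (TGATGNAA), where the factor ATF4 is known to bind, in capitals.
Asns (chr6:7693210-7693409, minus strand): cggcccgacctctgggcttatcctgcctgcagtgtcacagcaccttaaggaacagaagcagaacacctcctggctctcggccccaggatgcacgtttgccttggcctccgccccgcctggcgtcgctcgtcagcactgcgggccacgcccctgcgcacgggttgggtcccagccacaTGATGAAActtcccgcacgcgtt

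Over the window of 300 bases (250 before to 50 after the start), 7582 of 9383 tested symbols matched a listed promoter. A CArG box was present in 1.32% of these, in 5 of 152 matched genes called lower (3.29%) and in 6 of 70 matched members of the actin lists below (8.57%). The TEAD site was present in 872 of all matched promoters (11.5%) and in 31 of the 152 genes called lower (20.4%). It was found in 11 of the 70 actin genes (15.7%). Among 49 matched histone genes, 43 held a CCAAT box (87.8%, against 40.4% of all), 29 a TATA box (59.2%, against 6.94%) and 11 the octamer (22.4%, against 1.25%). The response element of the kind shown for Asns was in 2.12% of all and in 5 of the 152 (3.29%). Genes called lower had a median of 16 CpG in the window against 21 over all. Only 150 of 207 symbols called higher matched, under 80%, so the check is void for that set. A match of letters is a description and not a site of binding.

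Actin genes made up the largest block of lower calls among the gene groups. Of 80 members of 2 lists (contractile actomyosin, and actin turnover with its cortical linkers), 22 fell (27.5%, against 1.92% of all loci) and 2 rose. In 60 of the 80 the log2 fold change was below 0 (75.0%, against 49.3% of all loci). Lower calls were more common at high level, with 31 of 177 loci at 500 FPKM or more against 1 of 1452 from 1 to 2 FPKM. The counts for these lists were not matched for level. In the contractile list 11 of 36 fell, 2 rose and the median was -0.28. In the turnover list 11 of 44 fell, 0 rose and the median was -0.17. Medians of both lists stayed below 0 in all 13 alternative settings, from -0.36 to -0.26 and from -0.20 to -0.12.

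Myl9, a regulatory light chain of smooth muscle and non-muscle myosin, stood at 15.1, 10.4 and 8.86 FPKM, against 49.5 and 58.6 FPKM in Control. It was the named gene with the largest fall against a group above 0 (log2 fold change -2.17, SE 0.20, limma adjusted p = 0.000625), and it was stable. Its relatives Myl12b (401, 430.2 and 408 against 582 and 613 FPKM, -0.53) and Myl12a (376, 418 and 428 against 521 and 539.8 FPKM, -0.38) carried far more RNA and fell less. These 3 myosin light chains lay lower in every library labelled Fzr1-OE than in either Control library, as did every locus called lower. The heavy chain genes Myh9 and Myh10 were not called. Cnn2, a calponin that binds actin filaments, stood at 53.7, 54.1 and 54.1 against 99.3 and 77.0 FPKM (-0.69), and its call ended without Control replicate 1 (limma adjusted p = 0.0945). The tropomyosin Tpm1, the alpha-actinin Actn4, the focal adhesion protein Zyx, the actin elongation factor Vasp and Myl6 fell by 0.35, 0.43, 0.81, 0.60 and 0.37 on the log2 scale. Beta-actin, Actb, was at 542, 583 and 581 against 711 and 1124 FPKM, and Control replicate 2 lay apart from the other Control library. It was called lower (-0.65, adjusted p = 0.0452), but in only 1 of the 5 fits that left out a library. Ppp1r14b, an inhibitor of myosin phosphatase, and Actn2, the muscle alpha-actinin, rose by 0.52 and 0.92.

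Among turnover genes, the thymosins are small peptides that hold actin monomers in reserve. Tmsb10 stood at 6961, 6882 and 6872 FPKM against 9469 and 10400 FPKM, and Tmsb4x at 1304, 1269 and 1250 against 2073 and 1931 FPKM. The log2 fold changes were -0.52 (SE 0.05, limma adjusted p = 0.000423) and -0.65 (SE 0.05, adjusted p = 0.000308), and both were stable. Tmsb10 ranked alike in all libraries, so with quantile normalization its change was 0 by construction. The filament capping gene Capg (225, 254 and 264 against 434 and 417 FPKM) and the bundling gene Lcp1 (56.4, 57.2 and 65.3 against 109 and 107 FPKM) were stable as well, at -0.78 and -0.85. Profilin (Pfn1), destrin (Dstn), Wdr1, Cap1, Coro1b and the Arp2/3 subunits Arpc2 and Arpc4 fell by 0.41, 0.48, 0.50, 0.37, 0.53, 0.25 and 0.54. Cofilin (Cfl1), ezrin (Ezr) and the Arp2/3 subunit Arpc3 were not called, at 0.04, 0.25 and 0.02. Of the 22 lower calls 6 were stable. The 2 lists had 3 and 4 members lower without Control replicate 2 and 3 and 8 without Control replicate 1. They had 6 and 4 when Fzr1-OE replicate 3 was left out, and 5 and 7 when Fzr1-OE replicate 2 was left out. With no intensity trend in the limma fit 1 and 0 were lower, and with the replicate number as a block 1 and 3. Trophectoderm markers fell beside these genes, as given above, and their part in the result was not tested.

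**Figure D2:**
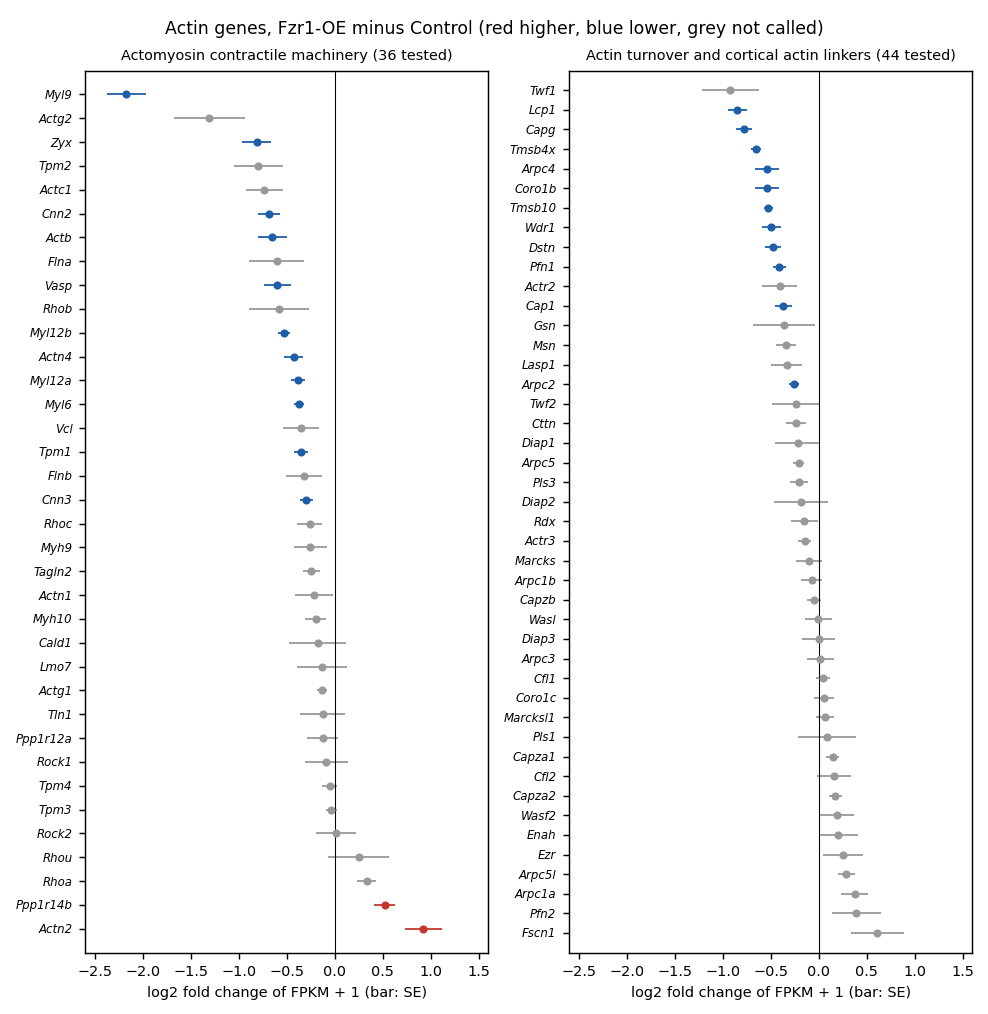
Log2 fold change of FPKM + 1 (points, with SE as bars) of the 36 contractile and 44 turnover genes tested, libraries labelled Fzr1-OE minus Control. Blue marks the 11 and 11 genes called lower and red the 2 called higher, and 60 of the 80 points lie left of 0.

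Of 5 keratins tested Krt8 and Krt18, the pair of simple epithelia and also 2 of the trophectoderm markers above, fell and 0 rose. Tspan8, a tetraspanin, was at 416, 417 and 422 FPKM against 613 and 617 FPKM (log2 fold change -0.55, SE 0.06, limma adjusted p = 0.000878), with spreads inside each group far below the gap. Among 16 tetraspanins (31.2% called) Tspan1 and Cd9 fell too, by 1.32 and 0.20. Cd81 and Tspan7 rose by 0.76 and 1.62, and only Tspan8 was stable. Of 21 genes for the sodium pump, aquaporins and ion exchange that fill the cavity, 0 were called by limma and 5 had an unadjusted p under 0.05, with a median of -0.26. The aquaporin Aqp3 stood at 23.8, 28.2 and 28.2 against 35.5 and 39.96 FPKM (-0.48, adjusted p = 0.0718) and the pump subunit Atp1b1 at 57.5, 48.1 and 50.9 against 62.6 and 68.4 FPKM (-0.32, adjusted p = 0.143). Of 43 junction and polarity genes 2 fell and 0 rose (4.65% called, near the 4.21% of all loci), with a median of -0.07.

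Several further genes with stable falls are known from epithelia or placenta. Lgals1, a galectin that binds cell surface sugars, stood at 264, 318 and 289 FPKM against 581 and 615 FPKM (log2 fold change -1.04, SE 0.08, limma adjusted p = 0.000308). Wfdc2, a secreted epithelial protein that was also in the uterine marker list, stood at 116, 145 and 138 against 281 and 227 FPKM (-0.93), and 6 of 10 markers of that list were at 0 in every library. Id2, an inhibitor of basic helix-loop-helix factors, was at 241, 223 and 216 against 361 and 567 FPKM (-0.99, SE 0.15, adjusted p = 0.00829). Id3, a paralog with the same biochemical role, went the other way, at 40.8, 42.9 and 49.7 against 18.6 and 13.3 FPKM (1.44, SE 0.16, adjusted p = 0.00131). Both were stable, and the groups overlapped for neither, as for every called locus. The list of 32 signalling feedback genes that holds them had 2 higher and 2 lower (12.5% called, against 4.21% of all loci). The median of that list moved from -0.14 to 0.04 over the alternatives. Its other calls were the Notch target Hes1 (-0.81, lost without Control replicate 2 at an adjusted p of 0.151) and the cytokine signalling inhibitor Socs2 (0.84).

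**Figure D3:**
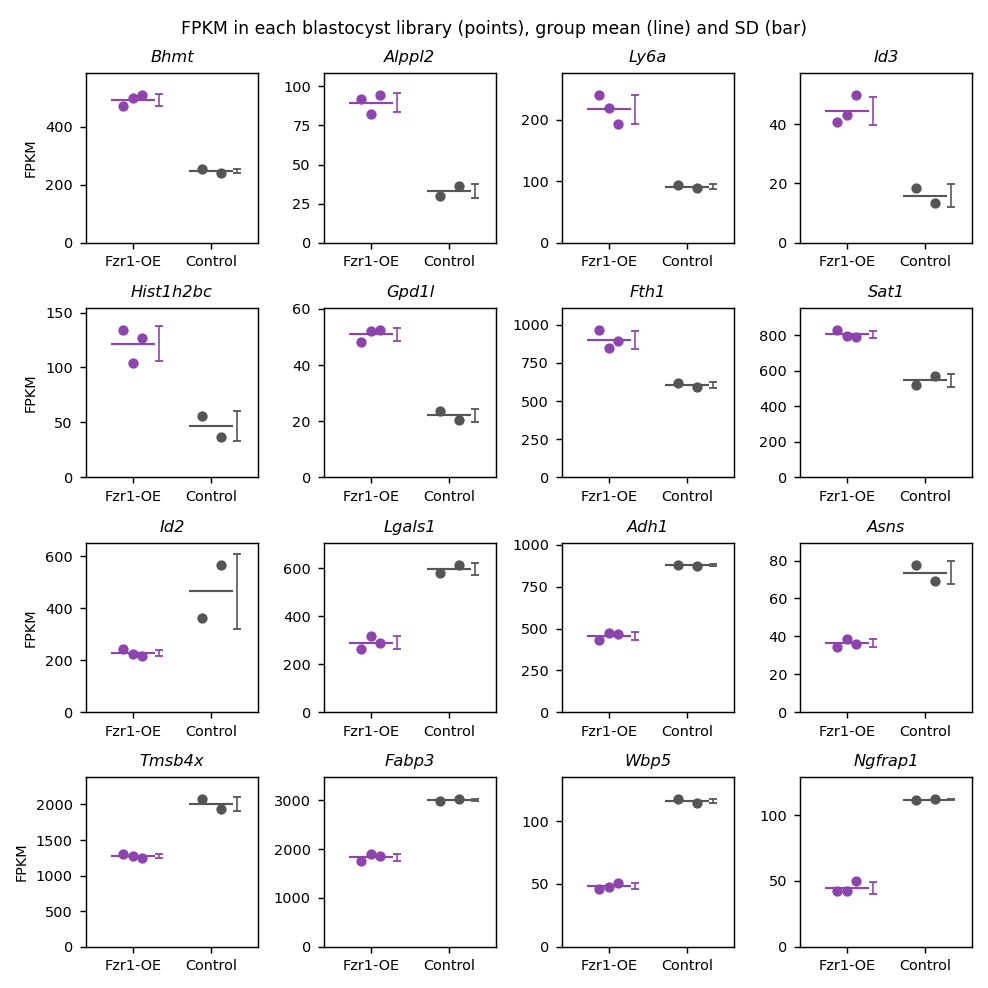
FPKM (vertical axes from 0) of 16 genes in the 3 libraries labelled Fzr1-OE (purple) and the 2 Control libraries (grey), with group means as lines and SD as bars. The upper 8 genes were higher and the lower 8 lower in every library labelled Fzr1-OE than in either Control library. Groups did not overlap in any called locus. Id2 shows the widest Control spread (361 and 567 FPKM).

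Replication-dependent histone genes, whose RNAs are made in S phase and mostly lack poly(A) tails, leaned higher as a family. Of 52 tested, 6 rose and 0 fell (11.5% called, against 4.21% of all loci), and 22 had an unadjusted p under 0.05. In 46 of 52 the log2 fold change was above 0 (88.5%, against 50.7% of all loci). The median was 0.45 and ran from 0.34 to 0.63 over the alternatives. Hist1h2bc, an H2B gene, was stable at 134, 104 and 127 FPKM against 56.1 and 37.1 FPKM (1.39, SE 0.17, limma adjusted p = 0.00229). Hist1h2bg stood at 9.08, 11.8 and 8.97 against 3.54 and 4.21 FPKM (1.16), and Hist3h2ba at 1.75, 2.31 and 2.00 FPKM while listed at 0 in both Control libraries, so that it reached the level for testing only through the libraries labelled Fzr1-OE. Neither call held without either Control library, with adjusted p from 0.0688 to 0.106. At 2 loci of Hist1h2ao the log2 fold changes were 0.47 and 0.45, with levels from 1008 to 1725 FPKM. These genes are near copies, so reads can be split among them and single values are uncertain. For the same reason the 46 of 52 above 0 are not separate observations. Linker histone Hist1h1b and the H3 gene Hist1h3e were not called, at -0.08 and -0.61. Among 27 replacement histone and high mobility group genes (11.1% called), the chaperones Nap1l1 and Npm1 rose by 0.43 and 0.23. H2afy, which encodes macroH2A1, fell by 0.48. Hat1, the acetyltransferase of new histone H4, rose at 321, 308 and 312 against 215 and 225 FPKM (0.51, adjusted p = 0.00309) and was stable. The calls among the 52 histone genes numbered 2 when Fzr1-OE replicate 2 was left out. They numbered 1 with no intensity trend and 1 with the replicate number as a block.

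Of 24 APC/C subunits, co-activators and checkpoint partners 0 rose and 1 fell (4.17%, against 4.21% of all loci), with a median of 0.07. The exception was Mad2l1bp, which encodes the checkpoint silencer p31comet, at 130.2, 145 and 128 against 171 and 175 FPKM (-0.36, limma adjusted p = 0.0423), and it held only without Fzr1-OE replicate 2. Of 37 genes for APC/C substrates of mitosis and G1, 3 rose and 1 fell (10.8%). Rrm2, the small subunit of ribonucleotide reductase, was at 470.0, 458 and 473 against 354 and 338 FPKM (0.43), Cks2 at 659, 763 and 649.6 against 468 and 492 FPKM (0.52) and Ccna2 (cyclin A) at 49.96, 53.5 and 53.3 against 39.2 and 34.0 FPKM (0.51). Tk1, thymidine kinase, fell by 0.39. All 4 calls ended without Control replicate 2, with adjusted p from 0.0642 to 0.241. The APC/C acts on proteins, which were not measured. Of 33 genes for H3K9 methylation and heterochromatin 0 were called by limma and 2 had an unadjusted p under 0.05. Those were Trim28, a co-repressor (48.5, 58.2 and 53.6 against 65.4 and 62.7 FPKM, adjusted p = 0.220), and Cbx3, a heterochromatin protein (26.6, 27.6 and 19.8 against 30.1 and 127 FPKM, adjusted p = 0.151). The Cbx3 difference rested on Control replicate 2, and the gene was called lower only without Control replicate 1. Of 27 imprinted genes 0 were called by limma and 5 had an unadjusted p under 0.05.

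**Figure D4:**
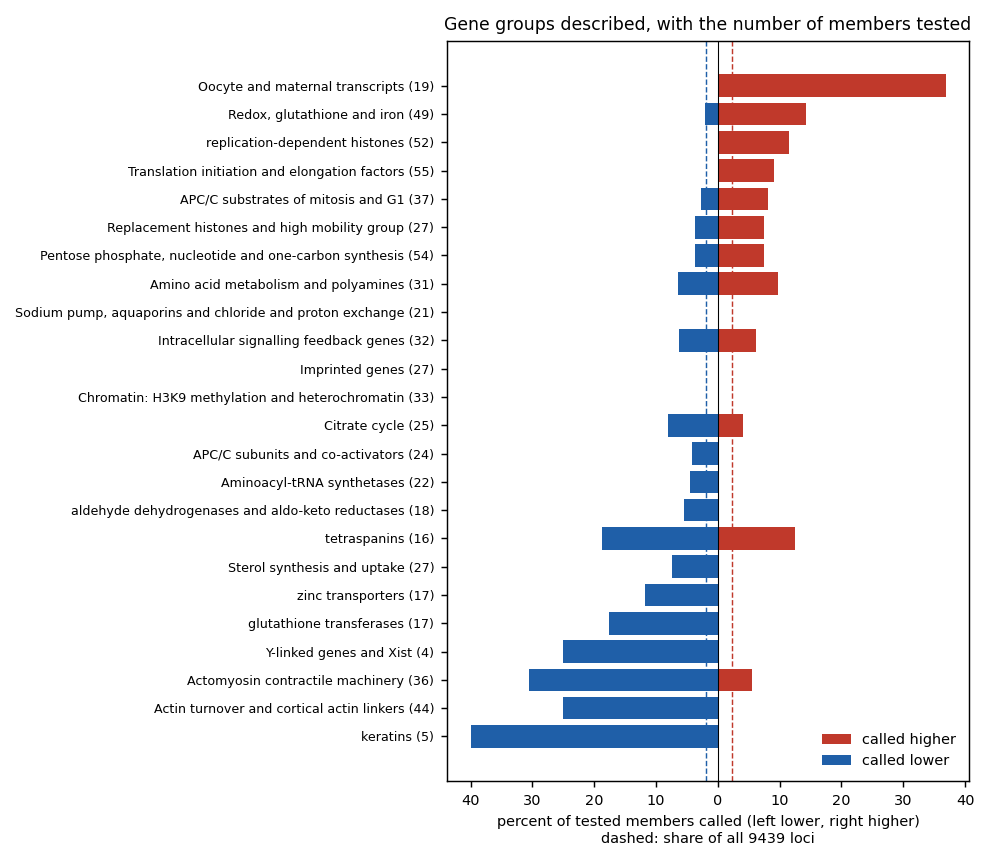
Percent of tested members called lower (blue, left) or higher (red, right) in libraries labelled Fzr1-OE for 24 gene groups, with the number tested in brackets. Dashed lines give the share over all 9439 loci (1.92% lower and 2.29% higher). Of the contractile actin genes 11 of 36 lie on the lower side. Of the oocyte list 7 of 19 lie on the higher side, a count that supports nothing further. Genes of that list with almost no RNA in Control reached the level for testing only through the libraries labelled Fzr1-OE.

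Among metabolic genes Bhmt, which remethylates homocysteine with betaine and is abundant at this stage, rose to 469, 498 and 507 FPKM from 253 and 241 FPKM (log2 fold change 0.99, SE 0.07, limma adjusted p = 0.000193). Stable rises were also found for Isyna1, the first enzyme of inositol synthesis (279, 301 and 314 against 160.0 and 169 FPKM, 0.85), and for Gpd1l, a glycerol phosphate dehydrogenase relative (48.2, 52.1 and 52.5 against 23.7 and 20.4 FPKM, 1.17). Pmm1, a phosphomannomutase, and Mpc1, a subunit of the mitochondrial pyruvate carrier, rose by 0.88 and 0.77 and were stable. Each of these 5 genes lay higher in all libraries labelled Fzr1-OE than in both Control libraries, as did every locus called higher.

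Falls among enzymes included Adh1, an alcohol and retinol dehydrogenase, at 429, 471 and 465 against 882 and 875 FPKM (log2 fold change -0.95, SE 0.06, limma adjusted p = 0.000193). Tpi1 of glycolysis was at 76.8, 86.8 and 74.8 against 137 and 167 FPKM (-0.92), and Ech1 of fatty acid oxidation at 39.2, 43.7 and 45.1 against 83.9 and 94.2 FPKM (-1.04). Fabp3, a fatty acid carrier, was among the most abundant of the stable falls at 1757, 1900 and 1849 against 2983 and 3020.4 FPKM (-0.71, SE 0.05). In the wider lists, 0 of 23 glycolysis genes rose and 2 fell (8.7% called, against 4.21% of all loci). Of 25 citrate cycle genes 1 rose and 2 fell (12.0%), and of 27 sterol genes 0 rose and 2 fell (7.41%). The sterol falls were Soat1 and Insig1, by 0.72 and 0.78. The medians of these 3 lists were -0.12, -0.07 and -0.21.

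Asns, asparagine synthetase, stood at 34.3, 38.5 and 35.95 FPKM against 77.8 and 69.2 FPKM (log2 fold change -0.999, SE 0.11, limma adjusted p = 0.00122) and was stable. Aldh18a1 of proline synthesis was at 1.81, 2.35 and 1.98 against 4.86 and 7.17 FPKM (-1.19), and its call ended in each of the 5 fits that left out a library (adjusted p from 0.0597 to 0.245). Mthfd2 of mitochondrial folate metabolism was at 10.1, 13.3 and 10.8 against 21.9 and 20.2 FPKM (-0.84) and lost its call without either Control library (0.148 and 0.141) or the third library labelled Fzr1-OE (0.0755). Of 22 aminoacyl-tRNA synthetase genes 18 had a log2 fold change below 0 and the median was -0.21. Nars alone was called (-0.40), which is 4.55% against 4.21% of all loci. The polyamine gene Sat1, which acetylates spermidine for export, rose at 830.5, 795 and 793 against 519 and 573 FPKM (0.56) and was stable, as was the purine salvage gene Hprt at 1642, 1718 and 1629 against 1158 and 1204 FPKM (0.49).

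Ubiquitin genes outside the APC/C also appeared among the stable calls. Of 33 ubiquitin-conjugating enzyme genes and 34 ubiquitin-specific protease genes, however, 0 were called. Rnf7, a RING subunit of cullin ligases, was at 338, 354 and 349 FPKM against 204 and 207 FPKM (log2 fold change 0.75, limma adjusted p = 0.000412). Ubb, which encodes polyubiquitin, was at 5023, 5489 and 5135 against 7348 and 7003 FPKM (-0.46, adjusted p = 0.00103). One was thus higher and the other lower in every library labelled Fzr1-OE than in either Control library, as holds for any called locus. Of 9 cullin and Skp1 genes 2 rose and 0 fell (22.2% called, against 4.21% of all loci). Of 42 F-box genes 0 rose and 1 fell (2.38%).

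Of 49 genes for redox control, glutathione and iron, 7 rose and 1 fell (16.3% called, against 4.21% of all loci). The ferritin chains Fth1 and Ftl1 store iron. Fth1 was at 965, 847 and 891 against 619 and 591 FPKM (log2 fold change 0.57, SE 0.07, limma adjusted p = 0.00175) and was stable, and Ftl1 at 5994, 6871 and 6692 against 5443 and 5133 FPKM (0.30, adjusted p = 0.0261). The glutathione peroxidases Gpx2 and Gpx3 rose by 1.39 and 0.95, glutaredoxin (Glrx) by 0.37 and peroxiredoxin Prdx6 by 0.40, and each of these calls ended without Control replicate 2. Glutathione transferases went the other way, with 3 of 17 lower, 0 higher and a median of -0.26. Gsta1 was stable at 6.02, 8.74 and 8.49 against 24.4 and 24.2 FPKM (-1.55), though a neighbouring predicted gene of near-equal values may share its reads. Mgst3 was at 89.1, 94.1 and 99.7 against 141 and 151.3 FPKM (-0.63) and lost its call without Control replicate 2 (adjusted p = 0.0810). The redox list had 3 genes higher when Fzr1-OE replicate 3 was left out and 4 when Fzr1-OE replicate 2 was left out. It had 0 higher and 0 lower with no intensity trend, and likewise with the replicate number as a block.

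Transcripts listed as oocyte or maternal were few at this stage, with 19 of 75 reaching the level for testing. Of these 7 rose, 0 fell and the median was 0.43. Because a gene near 0 in Control enters the test through the libraries labelled Fzr1-OE, this count supports nothing further. Uchl1, a ubiquitin hydrolase abundant in eggs, stood at 3.46, 2.45 and 3.40 against 0.127 and 0.125 FPKM (1.86) and at 30.3 and 24.6 FPKM in WT 2-cell embryos. Its call ended without Control replicate 2 (limma adjusted p = 0.0628). Obox6, an oocyte homeobox gene, was at 14.6, 14.5 and 10.2 against 4.13 and 6.41 FPKM (1.18). The Tdpoz genes, which encode BTB domain proteins, lie together on chromosome 3 from 93473255 to 93876566 (mm9), and all 5 tested loci there were higher. Tdpoz4, for one, was at 6.89, 6.21 and 6.72 FPKM and listed at 0 in both Control libraries. They are near copies whose reads cannot be told apart. The oocyte and polar body markers, a separate list, summed to 0.933 to 2.92 FPKM in libraries labelled Fzr1-OE and to 0.334 to 0.832 FPKM in Control, and their part in these rises was not tested.

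The called genes were also set against WT 2-cell embryos. Of the 181 loci called lower, 12 (6.63%) had more RNA in the 2-cell libraries than in blastocysts, against 26.1% of all loci and 70 of 216 (32.4%) called higher. The median 2-cell level was 5.32 FPKM for those lower, 22.3 FPKM for those higher and 3.59 FPKM for all loci. The blastocyst medians were 81.8, 40.5 and 8.46 FPKM. The shares above were not matched for blastocyst level, so they do not show a trait of stage. Krt18, Id2, Adh1, Lgals1 and Fabp3 were at most 20.1 FPKM at the 2-cell stage, and Myl9 was listed at 0 in both libraries. Among stable rises, Ly6a (239.8, 219 and 193 against 94.0 and 88.9 FPKM), Hist1h2bc and Phlda1 were also at or near 0 in 2-cell embryos, while Alppl2, an alkaline phosphatase (92.1, 82.5 and 94.2 against 29.8 and 36.1 FPKM), stood at 79.2 and 71.1 FPKM there. The 2-cell libraries are of another stage and depth, so these levels describe the genes and are not a test.

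**Figure D5:**
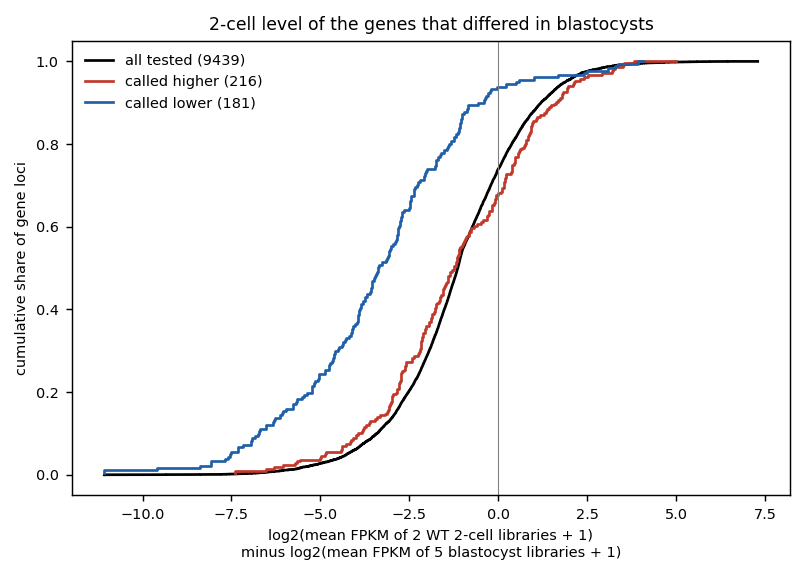
Cumulative share of gene loci by the difference in log2(FPKM + 1) between WT 2-cell embryos (mean of 2 libraries) and blastocysts (mean of 5 libraries), for all 9439 loci (black), the 216 called higher (red) and the 181 called lower (blue). The blue line lies to the left, with 6.63% of loci right of 0 against 26.1% of all. The sets were not matched for blastocyst level.

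Called genes were also abundant, and the transcript length implied by the bounds was short for them. Of the loci called lower 46.4% and of those called higher 36.6% had a mean of at least 100 FPKM, against 10.6% of all. The median implied length was 1.68 kb for those lower, 2.04 kb for those higher and 3.62 kb for all. Implied counts can level off in abundant loci. Tmsb10 had 2413 to 2465 implied fragments in every library while its FPKM ran from 6872 to 10400. Implied length is then too short, so whether called genes have shorter transcripts was not shown. The shortest of 10 equal classes of implied length held 46 loci called higher and 60 called lower, and the longest held 0 and 1. The median log2 fold change of the classes ran from -0.03 to 0.02. Precision rises with level, so the counts also show where a change could be seen.

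The X chromosome held a larger share of calls than the autosomes. Of 323 tested 8.98% were called: 19 were higher (5.88%) and 10 lower (3.10%), against 2.16% and 1.87% of 9114 autosomal loci, and 61.6% of X loci had a log2 fold change above 0 against 50.3%. Stable calls on the X were 2 higher (Hprt and Sat1) and 5 lower. The 5 were Plac1, a gene of the trophoblast, Tmsb4x, the ubiquitin ligase Rnf128, and the neighbours Wbp5 and Ngfrap1. Wbp5 was at 46.4, 47.7 and 50.7 against 117 and 115 FPKM (-1.25) and Ngfrap1 at 42.0, 42.3 and 49.9 against 112 and 112 FPKM (-1.31). They lie within 132601104 to 132806517 (mm9) among 6 tested Bex and Tceal genes, of which Tceal8 rose by 1.22 and 3 were not called.

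Of 4 tested Y-linked genes and RNAs of X inactivation 1 was called. Xist, the RNA that silences 1 X in females, stood at 4.92, 4.36 and 3.63 against 1.72 and 1.90 FPKM (log2 fold change 0.91, limma adjusted p = 0.0622). Its antisense partner Tsix overlaps it, and without stated strand their reads cannot be told apart. Y-linked Eif2s3y was at 12.3, 15.03 and 17.7 against 33.0 and 25.9 FPKM (-0.93, adjusted p = 0.0230), a call lost without either Control library or without the second Fzr1-OE library (adjusted p from 0.0681 to 0.163). Y-linked Ddx3y overlapped between groups at 7.95, 7.64 and 8.60 against 11.03 and 7.84 FPKM (-0.19, adjusted p = 0.661). The part of embryo sex in the X-linked results was not tested.

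Of the remaining 46 gene groups 44 had at least 5 members tested. Among these, medians ran from -0.17 to 0.19, and 10 had no member called. Of 134 solute carriers 7 fell and 0 rose (5.22% called, against 4.21% of all loci), with zinc carriers Slc39a1 and Slc39a2 among them. Slc39a1 was at 12.6, 11.1 and 9.78 against 18.9 and 46.5 FPKM (-1.34). Control replicate 2 lay apart, and the log2 fold change of Slc39a1 was -0.72 without it. Of 90 cytosolic ribosomal protein genes 4 rose and 1 fell, with a median of 0.02, and of 55 translation factor genes 5 rose and 0 fell. Those 5 were Eif5 (0.45), Eif1ax (0.35), Eif3e (0.33), Eif4ebp1 (0.30) and Tpt1 (0.27), and 0 were called without either Control library.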

How the data were processed

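RNA of mouse blastocysts was measured by sequencing of cDNA made from lysates, per the labels' protocols. The authors deposited FPKM per gene with confidence bounds for each library, per the file headers, in the layout of Cufflinks. Among the tools in the submitters' processing notes are Trim Galore 0.6.4, HISAT2 2.1.0, Cuffdiff and Cufflinks 2.2.1, whose roles are not stated, and the build is mm9. Depth was taken from the bounds as 2 standard deviations of a Poisson count, which would cover counting error only. Some abundant genes did not follow that reading. Files of fat, of other 2-cell groups and of H3K9me3 were not used here.

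Groups were taken from the titles. Nothing in the labels shows replicates to be separate cultures or litters, so a p-value here reflects no more than sample-to-sample spread, possibly technical. Values were tested as log2(FPKM + 1), which understates the change of low genes, in R 4.3.3 with limma 3.58.1 (its linear model and eBayes, trend on) over loci averaging 1 FPKM or more, with Benjamini-Hochberg adjustment and a threshold of 0.05. The fit left 3 residual degrees of freedom. The steps were tested on simulated data. Python 3.11.15, pandas 2.3.3, numpy 2.4.6 and matplotlib 3.10.9 were also used.

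The members, the 70 gene lists and the marker lists were chosen with earlier results of these data known, and lists are described by counts and medians only. Genes set for naming were Fzr1, the 15 largest rises and falls (mean of at least 5 FPKM) and the 5 largest changes in FPKM in each direction. The rises, falls and changes had to hold in every fit leaving out a library. Up to 5 called members per list and direction were added, or the 2 of smallest p where none was called. Not all of these are named above, and Ccng1, Tdpoz5 and Aqp11 are among those left out. Other genes named in the report, some of them uncalled list members, were chosen after their values were seen. Predicted genes and clones count in the totals without a name. Promoters are RefSeq sequences of GRCm38.p6, matched by symbol. Positions of genes are those of the files in mm9, counted from 1, and exons were not assigned. The 13 alternatives were another pseudocount (0.1), no filter, a filter of 5 FPKM, quantile and upper-quartile scaling, robust estimation, no trend, a replicate block and leaving out each library.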

Additional observations from a re-analysis of the deposited data

How the results depend on the processing

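The counts of 216 loci higher and 181 lower stayed within 1.5 times with a pseudocount of 0.1 (222 and 173), a filter of 5 FPKM (223 and 229), quantile normalization (236 and 191), upper-quartile scaling (215 and 169) and robust estimation (244 and 203). They came to 30 and 11 without the intensity trend and to 0 and 0 with no filter on low values. The cause was not tested. Leaving out 1 library gave 41 to 189 higher and 46 to 161 lower, lowest without Control replicate 2. With 1 Control library left, its spread is taken to equal that of the Fzr1-OE group. With the replicate number as a block, which drops Fzr1-OE replicate 3 for want of a Control partner, 23 were higher and 24 lower. The numbers are not shown to pair the samples, since deviations from the group means of same-numbered libraries correlated at -0.04 and 0.03. The log2 fold change of Fzr1 ran from -0.22 (block) to -0.02 (without Fzr1-OE replicate 1). Of 96 named loci that were called, 26 kept a call with the block. At 1 FPKM counting error alone is near 29% of a value, so small changes of low genes were not detectable at this depth.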

Other observations

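Among loci that were not called, 8 differed by more than 4-fold, and 6 of these were listed at 0 in 4 of the 5 libraries. Most are small RNA genes, but Prl3d1, a placental lactogen gene of trophoblast giant cells, was at 90.5 FPKM in Fzr1-OE replicate 1 and at 0 in the other libraries. In all, 24 tested loci were listed at 0 in 4 of the 5 libraries, and 0 of them were called by limma.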
